A study of Mus musculus with 12 samples.

Results

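The difference between 2 responses to doxycycline (dox) was measured by RNA sequencing in mouse fibroblasts. All 12 libraries of the series entered the comparison, which was set from the labels as the response of NLS-N-VEGF cells to dox minus the response of N-VEGF cells to it. A value above 0 on the log2 scale therefore means that a gene went up more, or went down less, with dox in the NLS-N-VEGF cells. The cells are described in the labels as mouse embryonic fibroblasts and in the study as NIH3T3, an immortalised fibroblast line. Both populations had been infected with a lentiviral pLVX-Tet-One-Puro vector, in which a dox-responsive promoter and its activator sit on the same construct, and both had been selected with puromycin. One population carried N-VEGF with a His tag, and the other carried it with a nuclear localization signal (NLS), taken from the Cas9 nuclease, added. The 4 groups of 3 libraries were NLS-N-VEGF cells without dox, NLS-N-VEGF cells with dox, N-VEGF cells without dox and N-VEGF cells with dox. The labels give no dose or time of dox, though the study states how many hours of dox preceded collection. No cells without a construct were grown with dox in this series. Within a population, an effect of dox itself and one of the construct therefore cannot be told apart.

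The labels number the libraries and add a suffix, and this gave 3 matched quartets, each with 1 library of every group. Quartets 1 and 2 hold the libraries numbered 1 and 2 that share one suffix, and quartet 3 holds the libraries numbered 2 that carry the other. The suffix has the form of a date, but the labels do not say what it marks, and nothing in them says that quartets 1 and 2 came from separate cultures, so p-values measure the spread between these libraries, which may be technical. The total count was between 13549331 and 18982127 per library, and 3 counts, taken as the lowest level the depth can show, were between 0.158 and 0.221 CPM, the count of a gene scaled by the size of its library. The fibroblast label was checked against 11 markers, all of which had at least 1 CPM on average, with a summed level between 12169 and 15210 CPM over the 12 libraries. Of 8 endothelial markers 1 reached 1 CPM, of 8 epithelial markers 2, and of 8 macrophage markers 3, with summed levels of at most 5.01, 3.79 and 41.5 CPM. One library stood apart, the N-VEGF library without dox of quartet 1. It had 19976 genes with at least 1 count, against 20947 to 22889 in the other 11, and 220 normalised CPM of the nuclear RNA Malat1, against 708 to 1302 in the others. Quartet 1 is therefore given beside quartets 2 and 3 throughout.

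VEGF-A, the main growth factor of blood vessels, can also be translated from an upstream start codon into a long form, whose N-terminal part, N-VEGF, stays in the cell. The design asks whether placing N-VEGF in the nucleus, by means of the NLS, changes transcription in cells that are not short of oxygen. Gene groups that would be looked at first are the targets of HIF, the transcription factor of the oxygen response, which drives glycolysis and Vegfa itself. Lipid synthesis genes are a further coordinated group in fibroblasts. Their transcription follows the SREBP factors, membrane-bound proteins of the endoplasmic reticulum that are released by cleavage when sterols run low and then switch on the enzymes of cholesterol and fatty acid synthesis.

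No gene was called for the difference between the 2 responses. Of 13608 genes tested, 0 (0%) had an adjusted p under 0.05 in edgeR's quasi-likelihood test with the suffix as a block, and the smallest adjusted p was 0.978. At an unadjusted p under 0.05 there were 474 genes (3.48%), of which 254 lay above 0 (1.87%) and 220 below 0 (1.62%). With DESeq2 the counts were 0 at the adjusted and 300 at the unadjusted threshold. The fitted value was above 0 in 51.4% of genes. It was above 0 in each of the 3 quartets in 11.2% of genes and below 0 in each in 11.6%. In 0.889% of genes all 3 NLS-N-VEGF pairs went up and all 3 N-VEGF pairs went down, and in 1.25% the reverse held. These shares are the background against which each gene group below is read.

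The construct row held more reads in N-VEGF cells than in NLS-N-VEGF cells after dox, in all 3 quartets. In NLS-N-VEGF cells the row of the construct insert held 5, 7 and 12 reads without dox in quartets 1, 2 and 3, and 48, 35 and 173 reads with dox. In N-VEGF cells it held 5, 10 and 7 reads without dox and 121, 149 and 268 with dox. Every dox library exceeded every library without dox, and in each quartet the N-VEGF library with dox held more reads than the NLS-N-VEGF library with dox. The difference of the dox effects on this row was -1.46 (log2, SE 0.56, unadjusted p = 0.0191, adjusted p = 0.9996), with quartet values of -1.34, -1.23 and -1.36. The 2 populations were thus compared at unequal levels of insert RNA, and whether the differences of other genes follow that inequality was not tested. How reads that match both the insert and Vegfa were assigned is not given in the sources used here.

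Genes were called for dox within each population. In NLS-N-VEGF cells 15 genes (0.110%) passed an adjusted p under 0.05, 11 up and 4 down, and in N-VEGF cells 13 genes (0.0955%) did, 9 up and 4 down. These counts depended on the processing. They were 115 and 47 without the library that stood apart, 52 and 32 with DESeq2, and 159 and 111 with no filter on low counts. Of the 21 genes called in either population, 7 were called in both and 19 had fitted effects of the same sign in both. The genes had been picked by these effects, and the share over all genes is not given here, so the 19 carry no weight. The shared genes included Adgrg1, an adhesion G protein-coupled receptor, Etl4, Sh3rf1, the kinase Map4k3, the secreted matrix protein Spon2 and Mgp, an inhibitor of calcification. Spon2 rose by 1.32 (log2, SE 0.10) in NLS-N-VEGF cells and by 0.97 (SE 0.10) in N-VEGF cells. Map4k3 rose by 0.69 (SE 0.08) and by 0.79 (SE 0.08), and Mgp fell by 1.12 (SE 0.17) and by 0.94 (SE 0.16). For Adgrg1 (chr8:94974751-95014217, GRCm38) the levels without dox were 1.495, 1.01 and 1.29 normalised CPM in NLS-N-VEGF cells and 1.01, 0.86 and 1.17 in N-VEGF cells. With dox they were 9.59, 10.01 and 25.8 in NLS-N-VEGF cells and 23.3, 22.4 and 42.3 in N-VEGF cells. The groups with and without dox did not overlap, and the N-VEGF library with dox was the higher of the 2 in every quartet, as for the insert. The difference for Adgrg1 was -1.39 (log2, SE 0.37, adjusted p = 0.9996), with quartet values of -1.65, -1.27 and -0.81. With no filter on low counts its adjusted p was 0.0387. Of the 21 genes, 12 had an unadjusted p under 0.05 for the difference, but they had been picked by the effects that enter it, so no weight is put on that count.

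The 3 quartets held little of a shared pattern across all genes. Over 12058 genes of at least 1 CPM, the quartet values of the difference correlated across genes at r = 0.03 for quartets 1 and 2, -0.22 for quartets 1 and 3 and 0.08 for quartets 2 and 3. Over the 2200 genes of at least 100 CPM the values of r were -0.07, -0.37 and 0.32. These correlations are descriptions across genes of shared libraries, and genes are not independent replicates. The standard deviation over genes was 0.42 in quartet 1, 0.27 in quartet 2 and 0.30 in quartet 3. Values followed exon length in opposite directions, with Spearman's rho of -0.19, 0.21 and 0.33 in quartets 1, 2 and 3. Non-coding classes of genes were low in quartet 1, with medians of -0.57 for the class TEC of unsettled transcripts, -0.52 for processed transcripts, -0.43 for antisense and -0.34 for lincRNA genes. In quartet 2 the medians were 0.05, 0.00, 0.07 and 0.02, and in quartet 3 they were 0.24, -0.01, 0.05 and 0.09, while protein-coding genes lay between -0.01 and 0.02 in all quartets. The part of RNA quality or library preparation in these shifts was not tested.

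**Figure D1:**
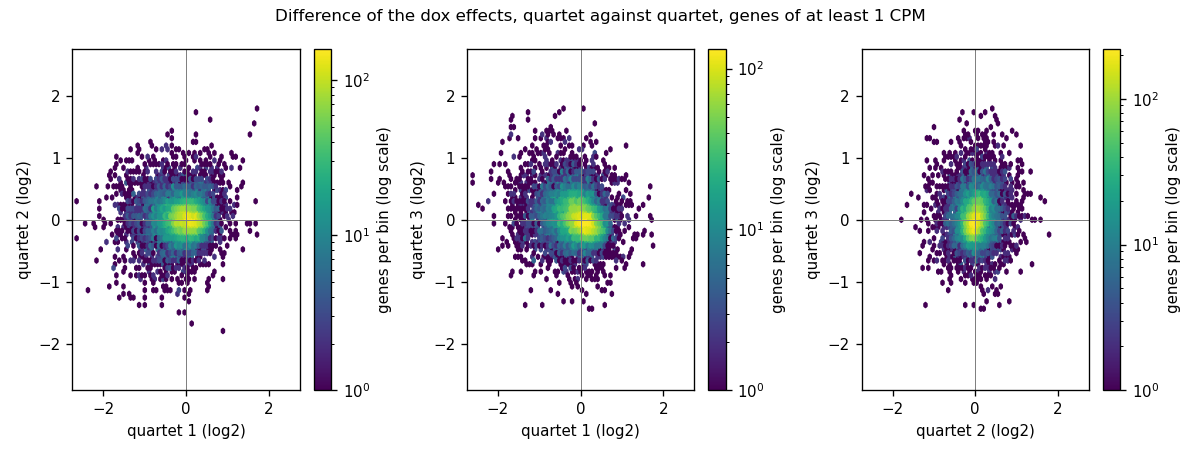
Difference of the dox effects (log2) in one quartet against another, for 12058 genes of at least 1 CPM, with the number of genes per bin in colour on a log scale. The clouds are round or tilted weakly (r = 0.03, -0.22 and 0.08), and 2 genes, Gm10800 and Gm10801, lie outside the axes.

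Gene lists were therefore read by whether all 3 quartets held the same sign. Of 53 lists, 49 had at least 8 tested members, and their medians ran from -0.27 to 0.26, beside a median of 0.01 over all genes. The medians of 6 lists were above 0 in all 3 quartets and those of 0 lists were below 0 in all 3. Of single genes 11.2% were above 0 in all 3 quartets and 11.6% below 0 in all 3. The number of lists, 6 of 49, is therefore no result in itself. These 6 were cholesterol synthesis (median 0.26), fatty acid synthesis (0.21), integrins (0.15), p53 targets (0.14), focal adhesion and Src kinases (0.08) and angiogenic ligands and receptors (0.08). Cholesterol synthesis had the largest median of the 49, and since it was picked out among 49, its size is a description. No member of any of the 49 lists passed the adjusted threshold.

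**Figure D2:**
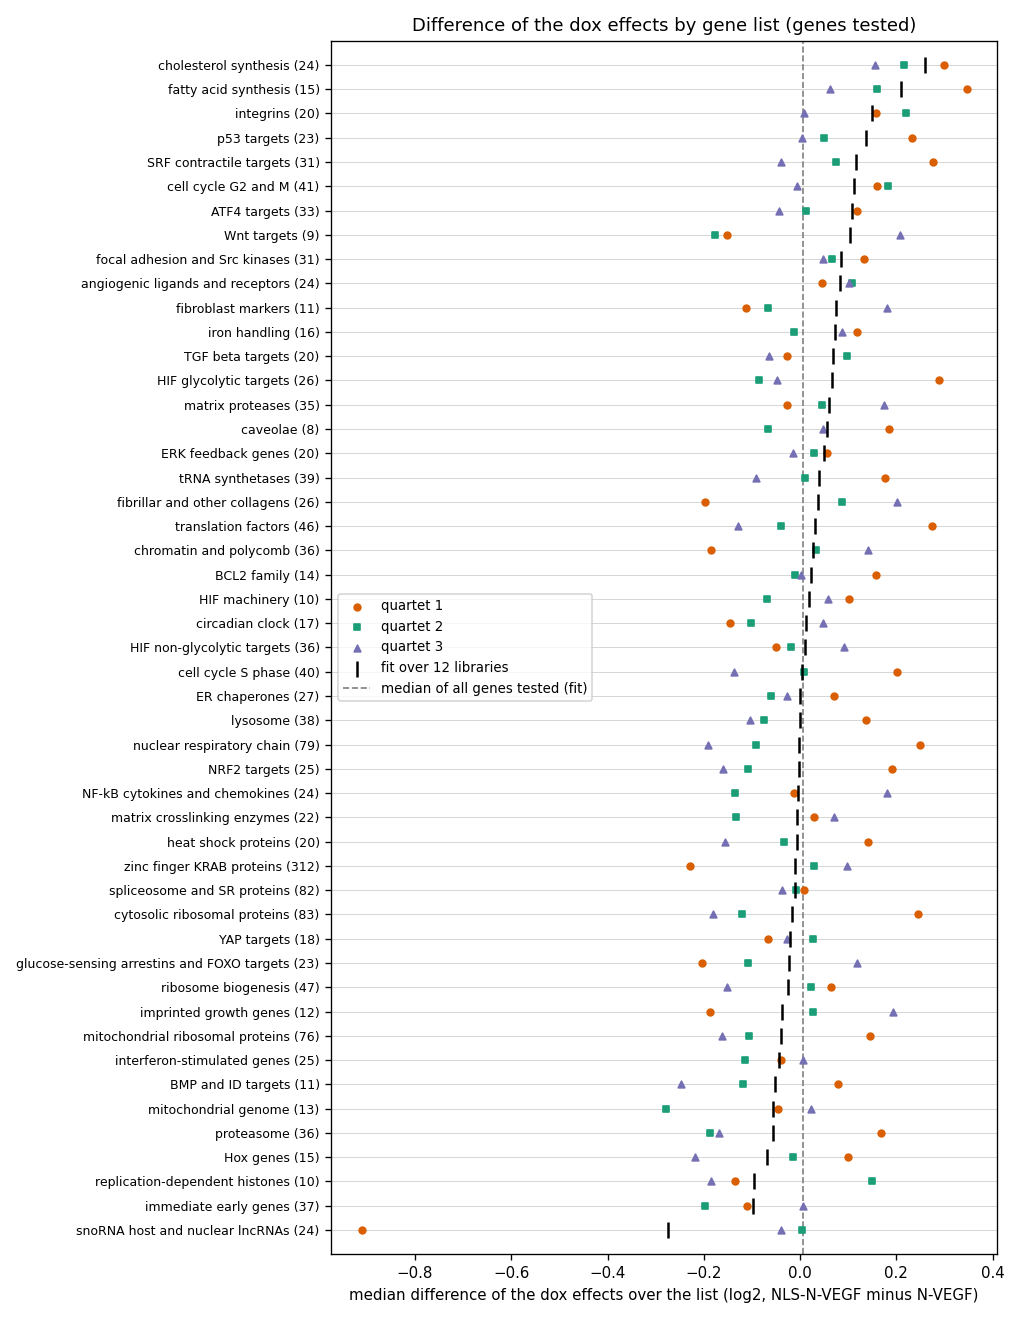
Median difference of the dox effects (log2) for each of 49 gene lists, with the number of genes tested in brackets, for quartets 1 to 3 (coloured symbols) and for the fit over 12 libraries (black bars). The dashed line is the median of all genes, 0.01, and cholesterol synthesis is the list at the top, with all quartet medians between 0.16 and 0.30.

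The genes of cholesterol synthesis lay together above 0. All 24 tested members of the list had a fitted difference above 0, where 51.4% of all genes did, and 19 of them were above 0 in each of the 3 quartets, where 11.2% of all genes were. At an unadjusted p under 0.05 there were 12 members, all above 0, and 0 passed the adjusted threshold. The median difference was 0.26 (log2), while the median response to dox was 0.15 for NLS-N-VEGF and -0.09 for N-VEGF cells. By quartet the median was 0.30, 0.22 and 0.16. Members share regulators and libraries, so the 24 genes are not 24 measurements, and the error is that of 3 quartets, whose standard deviation was 0.07. The table held 25 members of the list, of which 24 passed the filter on low counts.

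The summed level of the 24 genes shows both sides of the difference. In NLS-N-VEGF cells it was 4037, 4032 and 4070 normalised CPM without dox and 4650, 4621 and 4117 with dox, in quartets 1, 2 and 3. In N-VEGF cells it was 4444, 4289 and 3948 without dox and 4174, 4226 and 3527 with dox. The NLS-N-VEGF sum was higher with dox in each pair, by 0.20, 0.20 and 0.02 (log2), and the N-VEGF sum was lower with dox in each pair, by -0.09, -0.02 and -0.16. The NLS-N-VEGF libraries with dox lay above all those without it, while the N-VEGF ranges overlapped. In the presence of dox the NLS-N-VEGF library held more than the N-VEGF library of its quartet in all 3 quartets, whereas without dox it held less in quartets 1 and 2 and more in quartet 3. The sums gave differences of 0.29, 0.22 and 0.18.

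**Figure D3:**
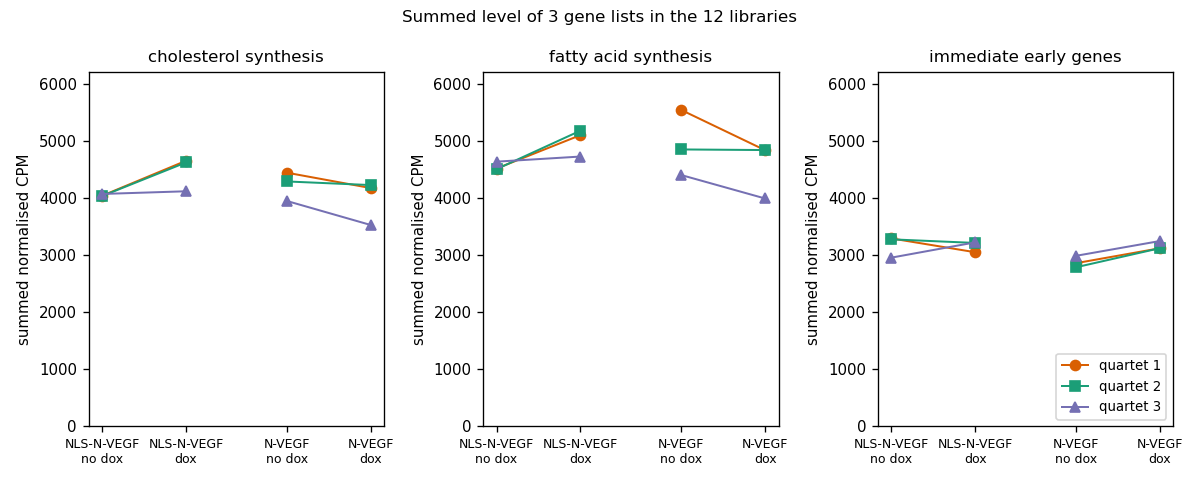
Summed normalised CPM of the cholesterol synthesis, fatty acid synthesis and immediate early gene lists in the 12 libraries, with each line joining the libraries without and with dox of 1 population and quartet. For cholesterol synthesis the lines of NLS-N-VEGF cells go up, from 4032 to 4621 in quartet 2 and from 4070 to 4117 in quartet 3, and the lines of N-VEGF cells go down.

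Values above 0 were found from the first steps of the pathway to the last. Hmgcs1, which makes HMG-CoA, and Pmvk, Mvk and Mvd, which act on mevalonate, were above 0 in all quartets, as were Fdft1, Sqle, Lss and Cyp51, which build and trim the sterol ring. Nsdhl and Hsd17b7, enzymes that take part in removing methyl groups from the sterol nucleus, had values among the 3 largest. For Nsdhl (chrX:72918557-72958514) the levels in NLS-N-VEGF cells were 81.9, 81.2 and 117 normalised CPM without dox and 117, 114 and 124 with dox. In N-VEGF cells they were 111, 89.4 and 117 without dox and 92.7, 100.1 and 104 with dox. The NLS-N-VEGF library went up with dox in every quartet, and the N-VEGF library went down in quartets 1 and 3. The difference for Nsdhl was 0.45 (log2, SE 0.13, unadjusted p = 0.0038), with quartet values of 0.76, 0.32 and 0.26.

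For Hsd17b7 (chr1:169949535-169969241) the levels were 72.2, 65.8 and 66.8 normalised CPM without dox and 85.2, 92.8 and 70.0 with dox in NLS-N-VEGF cells. They were 74.5, 71.8 and 70.5 without dox and 71.7, 79.1 and 54.3 with dox in N-VEGF cells. Its difference was 0.36 (SE 0.13, unadjusted p = 0.0137), and here quartet 3 had the largest value, 0.44, after 0.29 and 0.35. Pmvk, the phosphomevalonate kinase (chr3:89454541-89469013), had a difference of 0.38 (SE 0.14), with 0.70, 0.18 and 0.20 by quartet. All 3 of its NLS-N-VEGF pairs went up and all 3 of its N-VEGF pairs went down, which held for 6 members of the list. Among the smallest values of members of 1 sign were those of 2 genes of sterol feedback and transport. Insig1, which retains SREBP in the endoplasmic reticulum, had 0.10 (SE 0.12), and Stard4, a sterol carrier, had 0.19 (SE 0.11). Fdps, Sc5d, Dhcr7 and Ebp were among the members with no common sign over the quartets.

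Since the members lay together, their promoters were read for known motifs, and 4 of them are shown. RefSeq promoters (GRCm38.p6, 250 bases before to 50 after the start) were matched by symbol for 17 of the 24 genes. The windows of the genes with the 3 largest differences, and of Hmgcs1, are printed from 150 bases before to 50 after the start, 5′ to 3′ on the strand of the gene. Capitals mark CCAAT on either strand (ATTGG on the other), the letters bound by NF-Y, and the sterol element TCACNCCAC on either strand, the letters bound by SREBP. The Nsdhl window is chrX:72918371-72918570 (+), that of Hsd17b7 is chr1:169969156-169969355 (-), that of Pmvk is chr3:89454391-89454590 (+), the one of its 2 windows with a match, and that of Hmgcs1 is chr13:119690201-119690400 (+).
Nsdhl: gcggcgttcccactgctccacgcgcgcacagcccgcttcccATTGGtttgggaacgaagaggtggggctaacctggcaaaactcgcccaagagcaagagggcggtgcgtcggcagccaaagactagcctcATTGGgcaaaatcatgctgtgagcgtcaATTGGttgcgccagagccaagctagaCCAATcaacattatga
Hsd17b7: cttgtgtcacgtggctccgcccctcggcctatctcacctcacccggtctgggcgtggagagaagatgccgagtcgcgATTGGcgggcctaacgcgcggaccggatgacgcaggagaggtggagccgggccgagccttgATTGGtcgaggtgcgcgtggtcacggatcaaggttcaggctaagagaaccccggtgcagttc
Pmvk: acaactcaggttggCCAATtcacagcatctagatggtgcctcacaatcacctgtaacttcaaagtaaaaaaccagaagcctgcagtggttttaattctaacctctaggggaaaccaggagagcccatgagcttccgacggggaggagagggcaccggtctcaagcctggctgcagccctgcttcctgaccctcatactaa
Hmgcs1: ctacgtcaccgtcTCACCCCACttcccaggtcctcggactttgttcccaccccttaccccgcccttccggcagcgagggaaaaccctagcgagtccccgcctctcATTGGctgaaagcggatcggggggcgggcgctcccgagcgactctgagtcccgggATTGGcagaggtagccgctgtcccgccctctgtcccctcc
Nsdhl holds 4 CCAAT matches in the printed window, Hsd17b7 and Hmgcs1 hold 2 each and Pmvk holds 1. The window of Insig1 at this length, which is not printed, held 0 CCAAT matches and 0 sterol elements. The 4 printed windows are therefore examples and do not stand for all members. Over the full windows CCAAT was found in 16 of 17 genes of the list (94.1%), against 41.1% of the 27025 genes with a promoter and 43.8% of the 9870 that were also tested. The GC box GGGCGG was found in 16 (94.1%), against 38.2% and 67.95%, and the E-box CACGTG in 4 (23.5%), against 8.09% and 11.6%. The sterol element was found in 1 gene, Hmgcs1 (5.88%), against 1.44% and 1.34%, and it shares no base with a CCAAT match there. Exons of Fdft1 and Hmgcs1 overlap other genes over 18.3% and 12.1% of their length, and reads there cannot be told apart. In the fatty acid synthesis list, where 12 of 15 genes had a promoter, CCAAT was found in 8 (66.7%), GGGCGG in 8 (66.7%), CACGTG in 2 (16.7%) and the sterol element in 0. A match of letters is no measure of binding, and the windows are short.

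The genes of fatty acid synthesis and desaturation also lay mostly above 0, with smaller values in quartet 3. Of 15 tested members 13 (86.7%) had a fitted difference above 0, 9 were above 0 in all quartets, 5 had an unadjusted p under 0.05, all above 0, and 0 passed the adjusted threshold. The median was 0.21, with 0.35, 0.16 and 0.06 by quartet. The summed level in NLS-N-VEGF cells was 4516, 4505 and 4636 normalised CPM without dox and 5101, 5179 and 4726 with dox. In N-VEGF cells it was 5542, 4850 and 4402 without dox and 4837, 4839 and 3990 with dox. The quartet 1 difference draws on the highest of these 12 sums, 5542, which belongs to the library that stood apart. Without that library the median was 0.15, and for cholesterol synthesis it was 0.19.

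The 3 largest values were those of desaturases. Fads2, which acts on polyunsaturated fatty acids (chr19:10064164-10101503), had levels of 127, 122 and 137 normalised CPM without dox and 157, 155 and 139 with dox in NLS-N-VEGF cells. In N-VEGF cells they were 164, 135 and 127 without dox and 137, 133 and 114 with dox. Each NLS-N-VEGF pair went up and each N-VEGF pair went down, and the difference was 0.37 (log2, SE 0.12, unadjusted p = 0.0086), with 0.56, 0.37 and 0.18 by quartet. Scd1 and Scd2, the stearoyl-CoA desaturases that make monounsaturated fatty acids, had 0.33 (SE 0.12) and 0.30 (SE 0.13), and their quartet values lay between 0.14 and 0.57. The lowest values among members of 1 sign were those of Elovl6, an elongase, at 0.19 (SE 0.13), Fads1 at 0.21 (SE 0.11) and Acaca, acetyl-CoA carboxylase, at 0.21 (SE 0.11). Srebf1, the gene of the SREBP that governs this group, had -0.08 (SE 0.13) and no common sign over quartets, and is named after its values were seen.

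**Figure D4:**
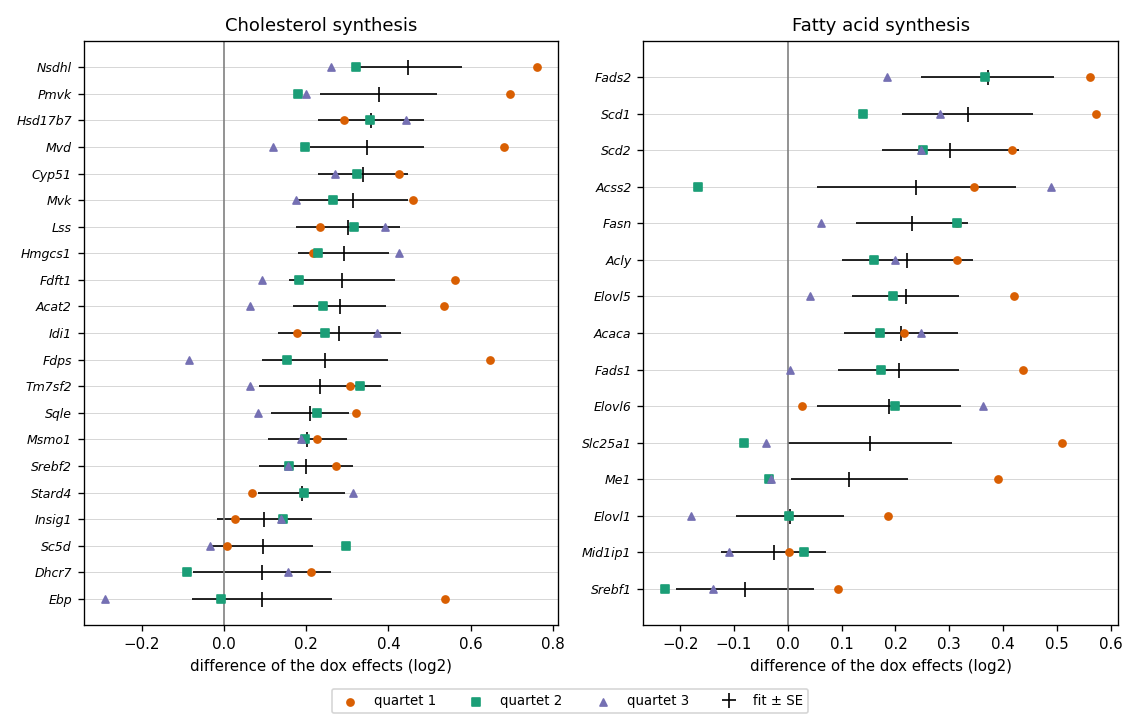
Difference of the dox effects (log2) for 21 of the 24 tested genes of cholesterol synthesis (left) and for the 15 of fatty acid synthesis (right), by quartet (coloured symbols) and from the fit with its SE (black). In the left panel 17 of the 21 genes lie to the right of 0 in every quartet, with 1 or 2 quartets to the left for Fdps, Sc5d, Dhcr7 and Ebp, and the right panel does so apart from its lowest 5 genes and from Acss2 in quartet 2.

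Immediate early genes, the transcription factors and feedback regulators that cells induce within minutes of serum or growth factors, had a median below 0 in each of quartets 1 and 2. Of 37 tested members 8 (21.6%) had a fitted difference above 0, and the median was -0.10. At an unadjusted p under 0.05 there were 6 members, all below 0, and 0 passed the adjusted threshold. By quartet the median was -0.11, -0.20 and 0.01, and 15, 5 and 21 of the 37 members were above 0. Of all 13608 genes 6505, 6928 and 6843 were above 0 in these quartets. Most members were thus below 0 in quartet 2, while quartet 1 was nearer to the share of all genes. The direction was not held in quartet 3. In a fit of quartets 1 and 2 alone the median was -0.22.

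Egr1, a zinc finger transcription factor and a classic member, is named after its values were seen and was the largest. Its level in NLS-N-VEGF cells was 241, 239 and 113 normalised CPM without dox and 172, 234 and 193 with dox. In N-VEGF cells it was 69.8, 112 and 101 without dox and 258, 245 and 148 with dox. In quartets 1 and 2 the lowest library was the N-VEGF one without dox, and in quartet 3 the 2 libraries without dox were close. The difference was -1.09 (log2, SE 0.30, unadjusted p = 0.0022), with -2.37, -1.16 and 0.22 by quartet.

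Cyr61, a matricellular protein (chr3:145646976-145649981), held its sign in all quartets. It had 166, 165 and 113 normalised CPM without dox and 119, 131 and 149 with dox for NLS-N-VEGF, and 84.1, 85.0 and 129 without dox and 120.04, 134 and 206 with dox in N-VEGF cells. Each N-VEGF library went up with dox, while the NLS-N-VEGF libraries went down in quartets 1 and 2 and up in quartet 3. Its difference was -0.81 (SE 0.25, unadjusted p = 0.0044), with -0.99, -0.99 and -0.28 by quartet. The same order was seen for Ier2, at -0.57 (SE 0.13) with -0.86, -0.70 and -0.07, and Junb, an AP-1 subunit, at -0.45 (SE 0.13) with -0.52, -0.49 and -0.30. Fosb, another AP-1 subunit, lay on the other side at 0.32 (SE 0.19), with 0.36, 0.32 and 0.24, and Nr4a2, a nuclear receptor, at 0.13 (SE 0.15). Ier3 was at -0.05 (SE 0.11). Btg2 and Fos, named after their values were seen, had -0.80 (SE 0.19) and -0.99 (SE 0.43) and were above 0 in quartet 3, at 0.09 and 0.62. In the fit of quartets 1 and 2 alone, Cyr61, Ier2 and Btg2 passed the adjusted threshold of edgeR's test, with adjusted p of 0.0419, 0.0451 and 0.0451. With no filter on low counts Egr1 (adjusted p = 2.0e-14), Cyr61 (adjusted p = 9.3e-07) and Btg2 (adjusted p = 0.0247) passed it in edgeR's test, against 0.9996 for each with the filter. Cyr61 also did without the NLS-N-VEGF library without dox of quartet 3 (adjusted p = 0.00857). Egr1 and Btg2 were above 0 in quartet 3, at 0.22 and 0.09, so their small values show no difference held by all quartets. These adjusted p-values moved with the setting, and no weight is put on them. The cause was not tested.

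**Figure D5:**
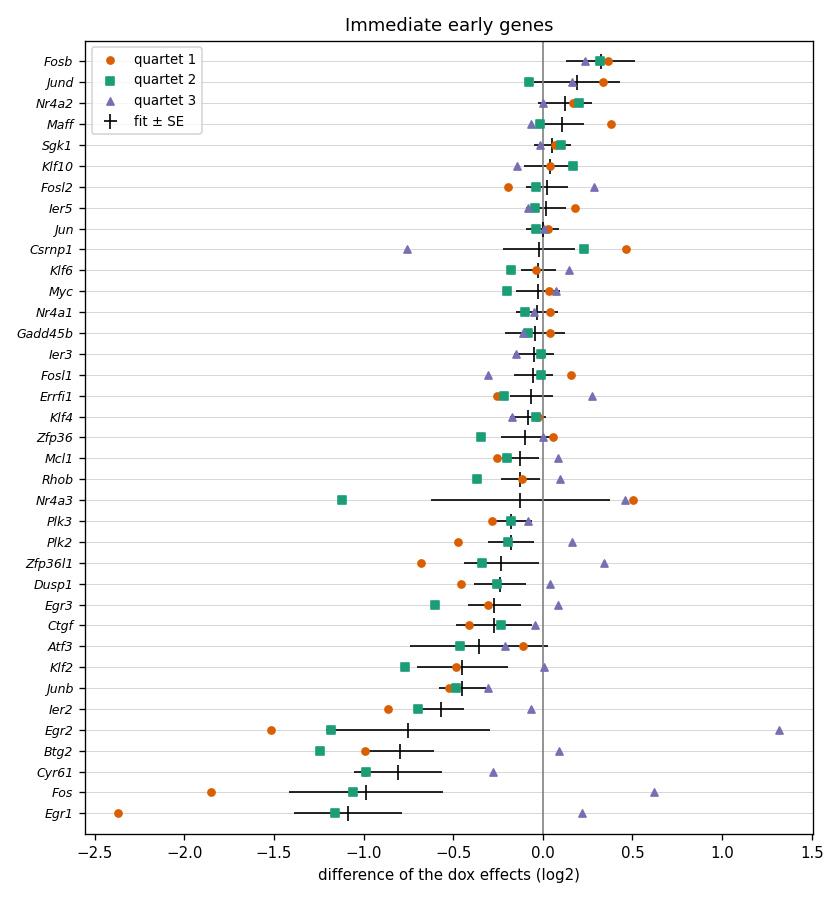
Difference of the dox effects (log2) for each of 37 immediate early genes by quartet (coloured symbols) and from the fit with its SE (black). Quartets 1 and 2 lie far below 0 for Egr1, Fos, Cyr61, Btg2 and Ier2, and quartet 3 lies near or above 0 for these apart from Cyr61 at -0.28.

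The targets of HIF held no common direction. For 26 glycolytic targets the median difference was 0.07, with 0.29, -0.09 and -0.05 by quartet, and 1 gene had an unadjusted p under 0.05. That gene was Pfkfb4, a regulator of glycolytic flux, with 0.51 (SE 0.21) and quartet values of 0.98, 0.48 and 0.01. Pfkm, the muscle phosphofructokinase, was the lowest of 1 sign, at -0.13 (SE 0.12). For 36 other HIF targets the median was 0.01, with 18 members above and 18 below 0. Among them Ciart, a repressor of the circadian clock, had -0.67 (SE 0.22), Angptl4, a secreted inhibitor of lipoprotein lipase, had -0.33 (SE 0.11), and Fam162a, a mitochondrial death factor, had -0.21 (SE 0.10). On the other side Bhlhe40 had 0.27 (SE 0.14), Ddit4, an mTORC1 inhibitor, 0.22 (SE 0.13) and Plod2, a collagen lysyl hydroxylase, 0.15 (SE 0.11). Angptl4 rose with dox in N-VEGF cells, by 0.65 (log2, SE 0.07, adjusted p = 0.000334), and had 0.32 (SE 0.07, adjusted p = 0.165) in NLS-N-VEGF cells. Its quartet differences were close to each other, at -0.31, -0.29 and -0.41.

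Hif1a and Vegfa were read in every library. Hif1a (chr12:73901375-73947530) had 200.4, 193 and 141 normalised CPM without dox and 241, 221 and 155 with dox for NLS-N-VEGF, and 181, 190 and 152 without dox and 201, 203 and 129.6 with dox in N-VEGF cells. NLS-N-VEGF libraries went up with dox in each quartet, N-VEGF libraries in quartets 1 and 2. Its difference was 0.19 (log2, SE 0.11, unadjusted p = 0.0951), with 0.11, 0.09 and 0.37 by quartet. For Vegfa (chr17:46016993-46032369) the levels were 88.7, 87.5 and 84.9 without dox and 130.4, 121 and 79.6 with dox for NLS-N-VEGF, and 78.9, 92.5 and 74.1 without dox and 92.7, 85.6 and 73.3 with dox in N-VEGF cells. The NLS-N-VEGF libraries with dox of quartets 1 and 2 were the highest of the 12, and that of quartet 3 was below its own library without dox. The difference for Vegfa was 0.29 (SE 0.14, unadjusted p = 0.0632), with 0.32, 0.58 and -0.07 by quartet. For the 10 tested genes of the HIF machinery, the subunits, hydroxylases and ligase, the median was 0.02, with 0.10, -0.07 and 0.06 by quartet.

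Among matrix receptors the values were split by gene. Of 20 integrin subunits 12 (60%) had a difference above 0 and the median was 0.15, with 0.16, 0.22 and 0.01 by quartet, and at an unadjusted p under 0.05 2 lay above and 1 below 0. Among subunits of at least 1 CPM and of 1 sign over the quartets, Itgb3 and Itgav, which pair as the vitronectin receptor, were the largest together with Itgb4. Itgb3 (chr11:104608000-104670476) had 23.3, 19.5 and 21.6 normalised CPM without dox and 28.8, 28.9 and 19.6 with dox for NLS-N-VEGF, and 26.7, 29.3 and 16.5 without dox and 23.6, 22.7 and 13.9 with dox in N-VEGF cells. All 3 N-VEGF pairs went down, and NLS-N-VEGF pairs went up in quartets 1 and 2. The difference was 0.51 for Itgb3 (log2, SE 0.19, unadjusted p = 0.0152), 0.28 for Itgav (SE 0.11, unadjusted p = 0.0216) and 0.28 for Itgb4 (SE 0.15). Itgae and Itga9, at 1.77 and 2.13 CPM on average, had -0.69 (SE 0.39) and -0.67 (SE 0.30), and Itga2b had -0.26 (SE 0.22).

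The kinases and adaptors that link integrins to the cytoskeleton had small values, mostly above 0 in the fit. By quartet 20, 24 and 18 of the 31 members were above 0, beside 6505, 6928 and 6843 of all 13608 genes. The summed level of the list gave differences of 0.25, 0.02 and -0.007, so quartet 3 did not hold the direction there. Of 31 tested members 26 (83.9%) were above 0, 7 were above 0 in all quartets and 0 below 0 in all, and the median was 0.08, with 0.13, 0.07 and 0.05 by quartet. Nedd9, a scaffold of focal adhesions, had 0.32 (SE 0.13, unadjusted p = 0.0242), Tln2, a talin, 0.19 (SE 0.10) and Pak1 0.16 (SE 0.13). The lowest of 1 sign were Ptk2, the focal adhesion kinase, at 0.04 (SE 0.09), Tln1 at 0.08 (SE 0.11) and Cfl2, a cofilin, at 0.08 (SE 0.10).

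The list of p53 targets had a median of 0.14, with 0.23, 0.05 and 0.005 by quartet, so that quartet 3 was at the median of all genes. Of 23 members 16 (69.6%) were above 0, 7 were below 0, and 1 had an unadjusted p under 0.05 above 0 and 2 below. The 2 below were Btg2, given above, and Mdm2, the ubiquitin ligase that degrades p53, at -0.36 (SE 0.12, unadjusted p = 0.0113), with -0.76, -0.32 and 0.001 by quartet, which is named after its values were seen. Among members of the list, the largest of 1 sign was Ccnd1, cyclin D1, with 0.32 (SE 0.13) and quartet values of 0.61, 0.29 and 0.03. Membership of the list is no measure of control by p53 in these cells. Ccng1, cyclin G1, and Zmat3, an RNA-binding protein, followed at 0.18 (SE 0.13) and 0.16 (SE 0.11), and Ei24 was the lowest of 1 sign at 0.16 (SE 0.11). Of Ccnd1 exons 23.4% overlap another annotated gene, and the counting is not stated to use strand, so reads there cannot be told apart.

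Several groups differed in sign or size between the quartets. For 83 cytosolic ribosomal proteins the fitted median was -0.02, with 0.24 in quartet 1, -0.12 in quartet 2 and -0.18 in quartet 3. For 79 nuclear genes of the respiratory chain it was -0.002, with 0.25, -0.09 and -0.19, and for 46 translation factors it was 0.03, with 0.27, -0.04 and -0.13. The 24 snoRNA host genes and nuclear long non-coding RNAs had a fitted median of -0.27, with -0.91, 0.00 and -0.04, and Malat1, named after its values were seen, had -2.63, 0.32 and 0.58. In quartet 1 the summed level of the non-coding list in the N-VEGF library without dox was 1286 normalised CPM, against 2337 to 3811 in the other 11 libraries. Contractile targets of SRF (31 genes, median 0.12), genes of the G2 and M phases (41 genes, 0.11) and targets of ATF4 (33 genes, 0.11) had medians above 0 in quartets 1 and 2 and of -0.04, -0.01 and -0.04 in quartet 3. Trib3, a target of ATF4 named after its values were seen, held its sign with 0.86, 0.46 and 0.21, and its fitted difference was 0.56 (SE 0.16).

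The angiogenic ligands and receptors, to which Vegfa belongs, had a small median of 0.08 over 24 genes, with 0.04, 0.11 and 0.10 by quartet, and 16 of them (66.7%) were above 0. At an unadjusted p under 0.05 there were 3 above and 1 below 0, and 6 members were above 0 and 1 below 0 in all quartets. The one below was Angptl4, which also counts among the HIF targets. The largest was Angpt1, angiopoietin 1, a ligand of the Tie2 receptor (chr15:42424723-42676977), with 2.70, 2.39 and 2.71 normalised CPM without dox and 3.27, 3.90 and 3.197 with dox in NLS-N-VEGF cells. In N-VEGF cells it had 1.26, 2.28 and 2.74 without dox and 1.12, 1.84 and 1.27 with dox. Each NLS-N-VEGF pair went up and each N-VEGF pair went down, and the difference was 0.95 (log2, SE 0.37, unadjusted p = 0.0224), with 0.35, 0.85 and 1.07 by quartet. Of Angpt1 exons 14.2% overlap another gene. Sema3c, a semaphorin, had 0.93 (SE 0.46), Flt1, a VEGF receptor, 0.58 (SE 0.34), Thbs1, the angiogenesis inhibitor thrombospondin 1, 0.19 (SE 0.19) and Pdgfc, a platelet-derived growth factor, 0.06 (SE 0.10). Sema3c and Flt1 were at 1.09 and 2.37 CPM on average.

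Across all genes, 364 had an unadjusted p under 0.05, a mean of 1 CPM or more and 1 sign over the quartets, 218 above and 146 below 0. Most of their largest values belonged to genes near 1 CPM. Above 0 these were Mmp3, a matrix metalloproteinase, at 1.69 (log2, SE 0.55), Snx20, Hid1, Pcdh7, Ropn1l, Col28a1, Cyfip2, Rbks, Map4k1 and Gm20324, at 0.9997 to 1.17 and with 1.02 to 2.52 CPM on average. Mmp3 held 29, 13 and 18 reads without dox and 39, 33 and 19 with dox for NLS-N-VEGF, and 34, 17 and 31 without dox and 8, 12 and 17 with dox in N-VEGF cells. Below 0, beside the construct row and Adgrg1, were Tnfrsf4, Gm19144, S100a7a, Tlr1, Gm17029, Mmp9, Sag and Zfp454, at -1.41 to -1.13. Exons of Gm17029 and Pcdh7 overlap other genes over 30.2% and 21.1% of their length.

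Among the genes with small p-values were 6 of middling level, which were picked and are named after their values were seen. Serpinb5, a serpin, had 12.4, 11.3 and 12.7 normalised CPM without dox and 7.28, 7.95 and 11.5 with dox for NLS-N-VEGF, and 9.74, 8.87 and 13.2 without dox and 11.8, 14.1 and 15.7 with dox in N-VEGF cells. Each NLS-N-VEGF pair went down and each N-VEGF pair went up, and the difference was -0.86 (log2, SE 0.18, adjusted p = 0.978). Heph, a copper-dependent ferroxidase, was called down with dox in NLS-N-VEGF cells, where it fell by 0.73 (SE 0.11, adjusted p = 0.00919), and had 0.02 (SE 0.11) in N-VEGF cells, and its difference was -0.75 (SE 0.16, adjusted p = 0.978). Mid2, a ubiquitin ligase, was called up in NLS-N-VEGF cells, where it rose by 0.56 (SE 0.10, adjusted p = 0.0329), and had -0.07 (SE 0.10) in N-VEGF cells, with a difference of 0.63 (SE 0.14, adjusted p = 0.978). Pms2, a mismatch repair protein, had -0.56 (SE 0.12), Bmpr2, a BMP receptor, 0.45 (SE 0.11) and Dclk1, a kinase that binds microtubules, 0.42 (SE 0.11). All 6 held 1 sign in the 3 quartets, which is no result, since they were picked with these values known. With the filter on low counts none of their differences passed the adjusted threshold. In edgeR's test with no such filter Serpinb5 (adjusted p = 0.025) and Heph (adjusted p = 0.043) passed it.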

How the data were processed

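RNA of 4 groups of 3 samples was made into TruSeq RNA v2 libraries. What the authors deposited are unnormalised counts of reads for each gene, made by trimming with Trim Galore and cutadapt 1.10, aligning with TopHat2 2.1.0 to GRCm38 and counting with HTSeq 0.6.1. TruSeq v2 does not mark strand, and the strand setting of the counting is not given in the sources used here, so overlapping genes cannot be told apart. Groups and quartets were taken from the labels.

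Counts of 54447 features were filtered with filterByExpr (13608 kept), scaled by TMM and fitted in edgeR 4.0.16 (R 4.3.3) with 1 mean per group and the suffix as a block. Contrasts were tested two-sided with the quasi-likelihood F test and adjusted by Benjamini-Hochberg over all genes, and the SE was derived from F. The common variation between libraries beyond counting noise, as estimated by edgeR, was 7.93% with the suffix block and 15.5% without it. It may be technical, since separate cultures are not stated. Quartet values are differences of log2(normalised CPM + 0.5) and understate the change of low genes. The script was tested on simulated counts, with known differences placed in genes above a minimum count. It recovered 34 of 67 (50.7%) at a log2 difference of 0.5, 58 of 67 (86.6%) at 1 and 66 of 66 at 2. There were 15 false calls among 13470 genes tested. Most differences described here are small, so the absence of calls does not show that they are 0. Coordinates and exon overlaps were taken from GENCODE mouse release 21.

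The libraries were checked for pairing before fits were compared. Deviations from the group means correlated between libraries of the same number and suffix, at 0.56 on average (0.35 to 0.80 over 18 pairs). Between other libraries of different groups the average was -0.24 (-0.72 to 0.63 over 36 pairs). Subtracting the mean of 3 libraries by itself lowers the correlation between others, and quartets 1 and 2 share a suffix. Pairing by number within that suffix is therefore not shown, and the quartets rest on the labels. The fit with the quartets as a replicate block gave 0 calls of the interaction and 464 genes at an unadjusted p under 0.05. No 2 replicates agreed within sampling noise (chi-square per degree of freedom at least 1.68).

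Members and gene lists were chosen with earlier results of these data known. Named were Vegfa, Hif1a and the construct row, up to 3 largest and 3 smallest same-signed members of at least 1 CPM in each list described in full, and the 10 largest and 10 smallest same-signed genes with an unadjusted p under 0.05. Described in full were the immediate early and HIF lists and the lists of at least 8 tested members with the 5 largest and 5 smallest medians among those of 1 sign in all quartets, 6 lists in all. Values of 4 list members are not reported here singly. No set test was run. Alternatives were DESeq2 1.42.0, relative log expression scaling, other filters, other blocks, single suffixes, leaving out each library, and quartets 2 and 3 only, which was chosen after seeing the data.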

Additional observations from a re-analysis of the deposited data

Results flagged for a closer look

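For the following, all 3 pairs of one population moved one way with dox and all 3 pairs of the other population moved the opposite way. The difference itself was tested for each gene by the interaction, and no adjusted p was under 0.05, while the list medians have no test. NLS-N-VEGF pairs went up and N-VEGF pairs went down for the median of cholesterol synthesis (difference 0.26, log2), that of angiogenic ligands and receptors (0.083), Angpt1 (0.95), Pmvk (0.38), Fads2 (0.37), Scd2 (0.30), Dclk1 (0.42), Tln2 (0.19), Snx20 (1.17), Map4k1 (1.001) and Gm20324 (0.9997). The reverse held for Serpinb5 (-0.86), Pms2 (-0.56), Ciart (-0.67), Tnfrsf4 (-1.41), Gm19144 (-1.34), S100a7a (-1.30), Sag (-1.14) and Zfp454 (-1.13). Over all genes tested 0.889% showed the first pattern and 1.25% the second, and most genes listed here were named because of a large or same-signed difference, so their number is no result. In the cholesterol list 6 of 24 members showed the first pattern.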

How the results depend on the processing

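The cholesterol synthesis median was above 0 under all 21 alternatives, and so were those of fatty acid synthesis, integrins, p53 targets, focal adhesion and angiogenic factors. These lists had been picked for medians above 0 in every quartet, and the alternatives reuse the same libraries. No weight is therefore put on that count. The immediate early median was below 0 under 20 of the 21 alternatives, and the HIF medians changed sign under 2 to 4 of them. The cholesterol median moved to 0.16 with quartet 3 only and to 0.17 with quartets 2 and 3 only, and lay between 0.19 and 0.35 when 1 library was left out. With quartet 3 only, which allows no test, other medians were 0.061 (fatty acid synthesis), 0.0066 (immediate early genes), 0.091 (HIF non-glycolytic targets), 0.0046 (p53 targets) and 0.0072 (integrins). With quartets 1 and 2 only the immediate early median was -0.22 and the angiogenic one 0.13. With quartets 2 and 3 only the focal adhesion median was 0.032 and the angiogenic one 0.15, and without 1 library the latter lay between 0.071 and 0.13.

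Calls of the interaction were 9 with no filter on low counts, 4 with quartets 1 and 2 only, and 0 to 2 without 1 library, with 2 without the NLS-N-VEGF dox library and 1 without the NLS-N-VEGF no dox library of quartet 3. Genes at an unadjusted p under 0.05 numbered 300 with DESeq2, 945 with no filter, 879 with quartets 1 and 2 only and 276 to 999 without 1 library, the extremes being without the NLS-N-VEGF and N-VEGF libraries without dox of quartet 1. With no replicate block they numbered 116, and with the 3-level replicate block 464, with 0 calls in both. Dox calls in NLS-N-VEGF cells were 52 with DESeq2, 159 with no filter, 3 with no replicate block, 109 with quartets 1 and 2 only and 6 to 115 without 1 library. In N-VEGF cells they were 32, 111 and 5 under the first 3 of these, and 8 to 47 without 1 library. The most, 115 and 47, came without the N-VEGF library without dox of quartet 1. The cause was not tested.

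Directions turned for Btg2 (0.089), Egr1 (0.22), Fos (0.62), Mdm2 (0.0012), Vegfa (-0.075) and Malat1 (0.58) with quartet 3 only, and for Malat1 (0.45) with quartets 2 and 3 only. Leaving out 1 library, the values ran from -0.12 to 0.056 for Ier3, -0.20 to 0.055 for Srebf1, -0.75 to 0.13 for Malat1, highest without the library that stood apart, and -0.0063 to 0.17 for Tln1.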
